A study of Mus musculus with 15 samples.

Results

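The D cyclins, their kinase partners, the inhibitors that hold those kinases back and the protein they act on were followed through 5 sorted populations of mouse mammary epithelial cells. The members were 10 genes taken by name: Ccnd1, Ccnd2, Ccnd3, Cdk4, Cdk6, Cdkn1b, Cdkn2a, Cdkn2b, Cdkn2c and Rb1. Each was read from its brightest probe set (a group of probes on the array that reads 1 transcript), among 18193 genes with a probe set of their own. For 9 of the 10 that probe set passed the filter on dim signals, as it did for 12143 genes in all. Cdkn2a did not pass and is given as levels without a test.

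All animals were adult C57BL/6 females, and each population was measured on 3 arrays, 15 in all. Alveolar luminal cells (AL) were lineage-negative YFP+ cells of Wap-Cre;R26Y females at midgestation, and the alveolar luminal stem/progenitor population (ALP) was the lineage-negative YFP+ fraction of virgin Wap-Cre;R26Y females. In both, Cre driven by the promoter of a milk protein gene switches on a YFP reporter, and the mark persists in descendants whether or not they still make Cre. The other populations came from virgin wild-type females without Cre or reporter and were sorted out of 3 cell suspensions by surface proteins. MaSC were the basal fraction (Lin-CD24+CD29hi), in which stem cells are enriched. Among luminal cells, with high CD24 and lower CD29, those positive for CD61 were the luminal progenitors (LP) and those negative for it the mature luminal cells (ML). AL and ALP thus share genotype and marking and differ in gestation, whereas AL or ALP against MaSC, LP or ML also differ in genotype and in the way of sorting, which cannot be told apart there. No scan dates were given in the sources used here, so array batches could not be examined, in AL against ALP as in the other comparisons. Whether AL and ALP replicates stem from different animals is not stated in the labels, and the p-values cover the spread among these arrays alone.

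In the G1 phase of the cell cycle, D cyclins bind CDK4 or CDK6, and the active kinases phosphorylate the retinoblastoma protein RB, which releases E2F transcription factors that drive genes of DNA replication. The Ink4 proteins (p16 from Cdkn2a, p15 from Cdkn2b, p18 from Cdkn2c) bind CDK4 and CDK6 themselves, whereas p27 (Cdkn1b) binds cyclin-kinase complexes and mainly restrains CDK2. In the mouse mammary gland, cyclin D1 is known for its need in alveolar growth during pregnancy.

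Promoter sequences from RefSeq (GRCm38.p6) are shown for Cdk4 and Cdk6, the kinases of the pathway, and for the neighbours Cdkn2a and Cdkn2b, one dim on nearly all arrays and one brightest in ML. Of the 10 members, 7 had an entry, with 10 transcription starts in all, and only the 250 bases before each start were read. Capitals mark matches to an E-box (CACGTG, the site of Myc family proteins), to an E2F-like site (TTTCCCGC, TTTCGCGC, TTTGCCGC or TTTGGCGC) or to a GC box (GGGCGG or its complement), each searched on both strands. The Cdk4 stretch (chr10:127063285-127063534, + strand) held 4 E-boxes, starting 172, 118, 98 and 11 bases before the start, and 1 GC box. The Cdk6 stretch (chr5:3343643-3343892, + strand) held 1 E-box, 220 bases before the start. That start lies inside the annotated gene, which begins at 3341004, and the bases before that position were not read.
Cdk4: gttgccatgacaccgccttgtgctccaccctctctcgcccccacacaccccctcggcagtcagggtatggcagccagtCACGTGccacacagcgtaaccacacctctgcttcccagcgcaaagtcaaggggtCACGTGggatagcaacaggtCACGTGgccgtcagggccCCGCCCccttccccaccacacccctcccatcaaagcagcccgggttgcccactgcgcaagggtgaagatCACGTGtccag
Cdk6: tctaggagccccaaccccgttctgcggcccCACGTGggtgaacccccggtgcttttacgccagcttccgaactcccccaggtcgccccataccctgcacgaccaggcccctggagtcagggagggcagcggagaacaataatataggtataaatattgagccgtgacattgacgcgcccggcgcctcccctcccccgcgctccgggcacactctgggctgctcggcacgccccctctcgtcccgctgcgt
At least 1 E-box was found in 6.02% and at least 4 in 0.0213% of the 32851 promoters of the same length (7 promoters).

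Cdkn2a and Cdkn2b lie 11669 bases apart on chromosome 4 and are read from the same strand. Cdkn2a has a distal start, the first exon of the p19Arf transcript, and a proximal start, that of the p16 transcript. The distal stretch (chr4:89294620-89294869, - strand) held 1 E2F-like site, 99 bases before the start, and 2 GC boxes. The proximal stretch (chr4:89282193-89282442, - strand) and the Cdkn2b stretch (chr4:89311033-89311282, - strand) held no match, which says only that these letters are not in these windows.
Cdkn2a distal: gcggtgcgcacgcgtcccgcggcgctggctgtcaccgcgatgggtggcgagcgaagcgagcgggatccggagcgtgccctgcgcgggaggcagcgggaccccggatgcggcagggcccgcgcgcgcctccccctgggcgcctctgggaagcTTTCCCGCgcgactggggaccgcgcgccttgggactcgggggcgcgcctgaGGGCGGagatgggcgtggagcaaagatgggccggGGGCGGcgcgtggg
Cdkn2a proximal: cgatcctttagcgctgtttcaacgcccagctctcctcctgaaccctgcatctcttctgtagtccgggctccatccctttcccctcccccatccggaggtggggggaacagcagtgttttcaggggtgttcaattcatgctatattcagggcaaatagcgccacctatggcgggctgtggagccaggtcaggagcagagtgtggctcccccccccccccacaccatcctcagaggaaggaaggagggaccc
Cdkn2b: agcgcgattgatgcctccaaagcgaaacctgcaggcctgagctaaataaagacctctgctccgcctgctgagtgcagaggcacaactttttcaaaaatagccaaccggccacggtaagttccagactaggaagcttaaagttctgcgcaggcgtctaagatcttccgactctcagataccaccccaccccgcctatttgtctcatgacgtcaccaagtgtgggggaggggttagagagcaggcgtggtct
E2F-like sites were found in 1.86% and GC boxes in 32.7% of all promoters. A match is a run of letters and not a measured binding site.

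Markers were read as summed intensities, list by list. Summed intensities of 6 markers of alveolar secretory cells, Csn2 and Wap among them, were 65916 to 76239.9 in AL, against at most 25181 elsewhere, and those of 7 basal markers were 17021 to 20792 on AL arrays, 6158 to 28055 on ALP arrays, 63012 to 68074 on MaSC arrays, 1963 to 3006 on LP arrays and 1059 to 3108 on ML arrays. The 5 luminal progenitor markers summed to 33054 to 36450.1 on LP arrays and 31183 to 34844 on ALP arrays, against 26705 to 27473 on AL, 11221 to 14360 on ML and 8836 to 18973 on MaSC arrays. The 4 measured markers of hormone-sensing cells (6 listed) were highest on ML arrays, at 30982 to 33855, against 16377 to 24480.1 on ALP, 8401 to 13106 on LP and 4952 to 6276 on AL arrays, and they spread widely on MaSC arrays, at 19487, 13961 and 5781. The 4 luminal markers were nearly as bright in MaSC (50574 to 58814) as in the luminal populations (57646 to 63971 over AL, ALP, LP and ML). ALP replicate 3 stood apart: its 8 immune markers, all above the array median, summed to 59899.9, against 2388 and 3065 in the other ALP arrays, its 7 endothelial markers to 13229, against 1609 and 3256, and its 7 basal markers to 28055, against 7315 and 6158. Outside ALP the immune sum ran from 3701 to 5360 on AL arrays, 1492 to 3120.3 on MaSC arrays, 489 to 1167 on LP arrays and 468 to 687 on ML arrays. The 7 fibroblast markers summed to 28844 to 40051 on AL arrays, 44499 to 79682 on ALP arrays, 5488 to 7617 on MaSC arrays, 32951 to 49372 on LP arrays and 1643 to 6122 on ML arrays. The 3 measured adipocyte markers (4 listed) summed to 4694 to 5276 on AL arrays, 6159 to 14246 on ALP arrays and at most 1099 on the rest. The part of any of these in the results was not tested. In such bulk samples, fewer cells of a kind and less RNA per cell cannot be told apart.

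All 9 members tested differed among the 5 populations (moderated F test of limma, Benjamini-Hochberg adjusted p from 4.67e-05 for Cdk6 to 0.0111 for Cdkn1b). So did 84.7% of all genes tested, so this count says little about the members. Of the 90 differences between pairs of populations, 45 passed an adjusted p of 0.05. Of these, 30 were higher and 15 lower in the first-named population, a split that depends on the order of naming. Ccnd1, Ccnd2, Cdk6, Cdkn2c and Rb1 each passed in 6 of 10 comparisons, Cdk4, Cdkn1b and Cdkn2b in 4 and Ccnd3 in 3. Of all 12143 genes, 915 (ALP against LP) to 7228 (MaSC against ML) passed per comparison, so these counts too say little about the members. Of the 45, 32 passed whichever single array was left out.

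**Figure D1:**
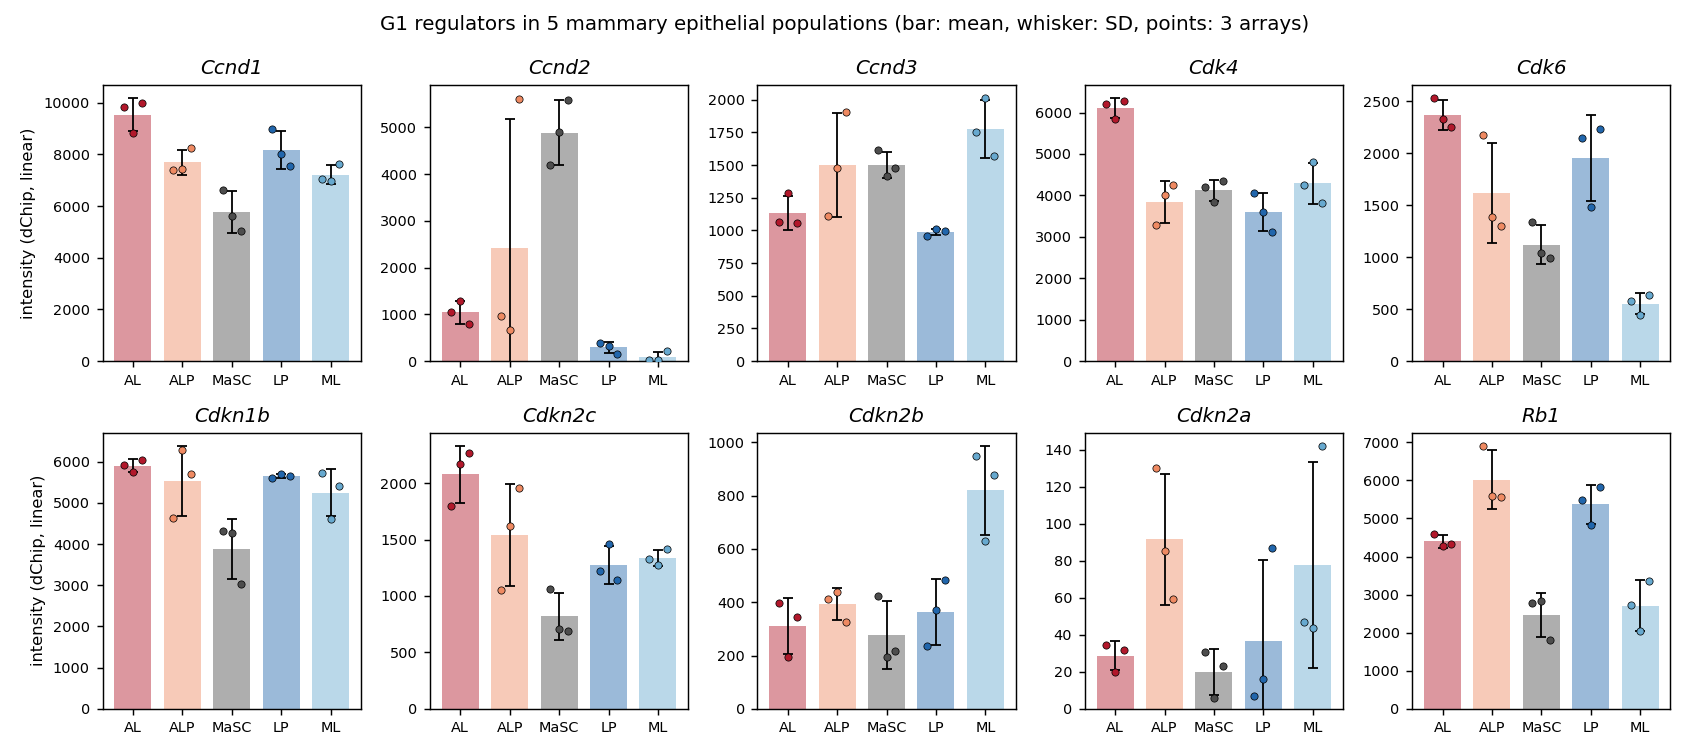
Intensities (dChip, linear axis from 0) of the brightest probe set of each member in AL, ALP, MaSC, LP and ML; bars are means, whiskers the SD (drawn only above 0) and points the 3 arrays. Ccnd2 stands highest in MaSC and in 1 ALP array at 5608, Cdk4 highest in AL, Cdkn2b highest in ML, and Cdkn2a stays at or below 142 on all arrays.

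Cyclin D1 (Ccnd1, probe set 1448698_at, GRCm38.p6 chromosome 7, 144929931 to 144939831, the build of all positions here) was bright in every population and brightest in AL. Its intensity was 9828, 8807 and 9981 on the AL arrays, 7405, 7431 and 8251 on the ALP arrays, 6622, 5632 and 5032 on the MaSC arrays, 8996, 7995 and 7566 on the LP arrays and 7045, 6985 and 7625 on the ML arrays. The 3 AL arrays lay above all ALP, MaSC and ML arrays but overlapped LP, and the MaSC arrays lay below all others. AL exceeded MaSC by 1.66-fold (log2 difference 0.73 ± 0.11 SE, adjusted p = 0.000148), ML by 1.32-fold (adjusted p = 0.0085) and ALP by 1.24-fold (adjusted p = 0.04). The last did not pass without AL replicate 1 or 3, ALP replicate 1 or 2, MaSC replicate 2, LP replicate 2 or ML replicate 1 or 2 (adjusted p 0.0501 to 0.122). The difference between AL and LP was 0.22 on the log2 scale, with a 95% interval from -0.02 to 0.46 (adjusted p = 0.116).

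In the order of means, AL, LP, ALP, ML and MaSC, only the last step, from ML to MaSC, passed between neighbours. MaSC was lower than LP by 1.43-fold (adjusted p = 0.00321) and lower than ML by 1.26-fold (adjusted p = 0.0197, but 0.0515 to 0.0805 without MaSC replicate 2 or 3 or ML replicate 3), and ALP was 1.34-fold higher than MaSC (adjusted p = 0.0102). All 3 Ccnd1 probe sets passed in the same direction for AL against MaSC, AL against ML and each comparison of MaSC with ALP, LP and ML. The middle set, 1417420_at, did not pass for AL against ALP (1.19-fold, adjusted p = 0.307) or AL against LP (1.2-fold, adjusted p = 0.278). The dimmest of the 3, 1417419_at, gave larger folds for AL, of 1.96 against ALP, 4.45 against MaSC, 1.96 against LP and 2.39 against ML, with adjusted p from 4.29e-05 to 0.0133. The size of the Ccnd1 difference thus depended on the probe set.

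Cyclin D2 (Ccnd2, 1434745_at, chromosome 6, 127125162 to 127152188) had the widest range of the members. Its intensity was 1054, 1289 and 785 on the AL arrays, 966, 667 and 5608 on the ALP arrays, 4185, 4889.7 and 5591 on the MaSC arrays, 396, 329 and 156 on the LP arrays and 32.9, 19.2 and 221 on the ML arrays. MaSC and ALP replicate 3 formed the top, LP and ML the bottom without overlap with the rest, and 1 LP and 2 ML arrays lay below the median of their array, where intensities carry little information. In MaSC it was 93.6-fold higher than in ML (log2 6.55 ± 0.88 SE, adjusted p = 9.56e-05) and 17.8-fold higher than in LP (adjusted p = 0.00318). With 16 added to each intensity, which damps dim values, these folds were 65.7 and 16.8.

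AL held 19.7-fold more Ccnd2 signal than ML (adjusted p = 0.00152) and 4.75-fold less than MaSC (adjusted p = 0.0441). The basal marker sums moved with these differences, at 17021 to 20792 on AL arrays, against 63012 to 68074 on MaSC and 1059 to 3108 on ML arrays, and their part in them was not tested. The AL difference from MaSC did not pass without any 1 of the AL or MaSC arrays, LP replicate 1 or 2 or ML replicate 1 (adjusted p 0.0514 to 0.114). Between LP and ML the fold was 5.26 (adjusted p = 0.0404), and it did not pass without any 1 AL array, MaSC replicate 2, LP replicate 1 or 2, or ML replicate 1 or 2 (adjusted p 0.0514 to 0.161), nor with 16 added to each intensity (3.92-fold, adjusted p = 0.0547). The size of the folds against ML varied with the ML array left out: without ML replicate 3 the log2 differences were 7.59 for MaSC, 5.34 for AL and 3.44 for LP, and without ML replicate 2 they were 5.83, 3.58 and 1.68.

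The Ccnd2 level of ALP turned on replicate 3, the array with the high immune, endothelial and basal marker sums, whose part in it was not tested. All 7 Ccnd2 probe sets were brightest there among the ALP arrays, 5.81 to 9.69 times the higher of the other ALP arrays. With that array, the brightest set did not separate ALP from MaSC (log2 -1.66, 95% interval -3.58 to 0.26, adjusted p = 0.153). Without that array, ALP was lower than MaSC by 2.60 on the log2 scale (adjusted p = 0.0268). Against ML the log2 difference of ALP was 4.89 (adjusted p = 0.00137) with that array and 3.95 without it, and 5.49 without ALP replicate 2, 4.17 without ML replicate 2 and 5.93 without ML replicate 3. The 7 Ccnd2 probe sets did not bear out every step of this order. Each of the 7 was higher in MaSC than in LP (8.74 to 25.4-fold) and ML (22.5 to 93.6-fold), and higher in AL than in ML (4.25 to 19.7-fold), and every one of these differences passed. AL was lower than MaSC by 3.45 to 6.99-fold and passed in 6 of 7 sets, AL against LP gave 2.54 to 3.74-fold and passed in 1 of 7, and LP against ML gave 1.44 to 5.26-fold and passed only in the brightest set. With all arrays, ALP was lower than MaSC by 2.52 to 4.08-fold and passed in 2 of 7 sets. ALP against LP gave 3.47 to 6.22-fold and passed in 2 of 7.

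The ratio of Ccnd2 to Ccnd1 within an array is free of any 1 factor that scales the whole array. Only the change of the ratio between populations has a meaning, since probe sets of different genes are not on 1 scale. On 1 LP and 2 ML arrays Ccnd2 lay below the array median, so the ratios there are uncertain in size. The log2 ratio averaged -3.22 ± 0.45 for AL, -2.32 ± 1.55 for ALP, -0.24 ± 0.41 for MaSC, -4.90 ± 0.61 for LP and -7.12 ± 1.78 for ML (SD, n = 3 each). The populations differed (exact permutation test of the one-way F over 1401400 partitions of the arrays, upper tail, F = 16.1, p = 8.85e-05). The MaSC ratios, from -0.66 to 0.15, lay above all others except ALP replicate 3 at -0.56, which fell between them. The remaining ALP arrays, at -2.94 and -3.48, lay within the range of AL, from -3.67 to -2.77.

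**Figure D2:**
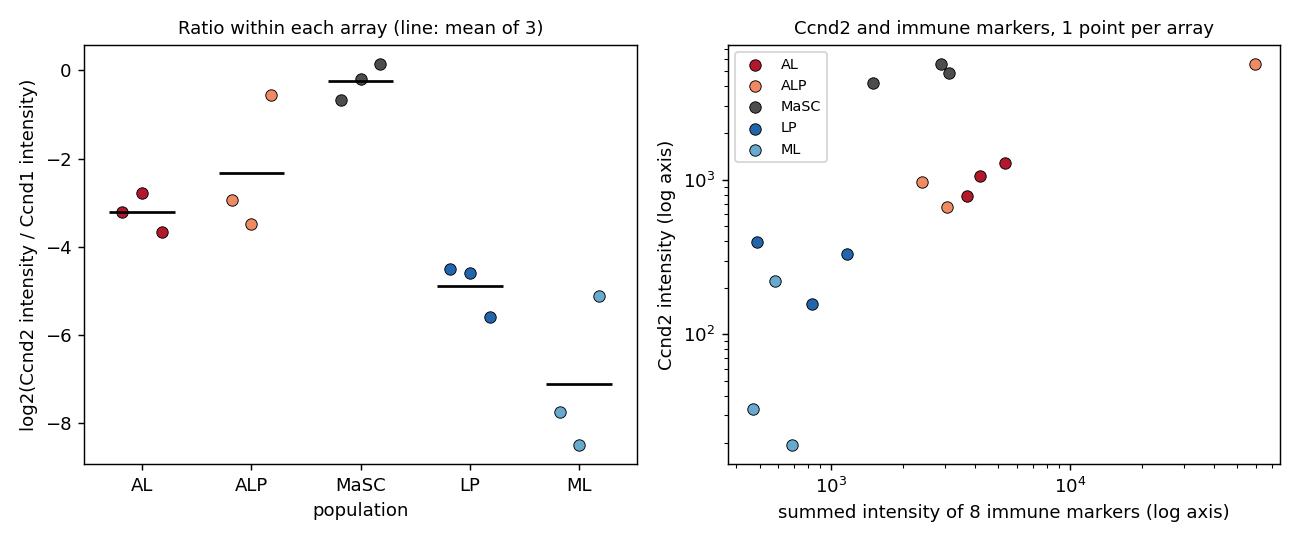
Left, log2 ratio of Ccnd2 to Ccnd1 intensity in each array of AL, ALP, MaSC, LP and ML (line, mean of 3). Right, Ccnd2 intensity against the summed intensity of 8 immune markers in each array, both on log axes; ALP replicate 3 stands alone at the right, with a marker sum of 59899.9 and a Ccnd2 intensity of 5608, while the MaSC arrays read 4185 to 5591 with sums of at most 3120.3.

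Cyclin D3 (Ccnd3, 1415907_at, chromosome 17, 47505051 to 47599689) was brightest in ML and dimmest in LP. Its intensity was 1065, 1286 and 1057 on the AL arrays, 1111, 1477 and 1906 on the ALP arrays, 1614, 1418 and 1475 on the MaSC arrays, 958, 1007 and 993 on the LP arrays and 1753, 2012 and 1566 on the ML arrays. The ML arrays lay above all AL and LP arrays, and the LP arrays below all others. AL was lower than ML by 1.56-fold (log2 -0.64 ± 0.17 SE, adjusted p = 0.00669) and LP lower than ML by 1.79-fold (adjusted p = 0.00169). MaSC was 1.52-fold higher than LP (adjusted p = 0.0135). No step between neighbours in the order ML, MaSC, ALP, AL, LP passed by itself.

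The next brightest Ccnd3 probe set, 1438805_at, agreed on the deficit of AL and LP relative to ML (log2 -1.02 and -1.66, adjusted p = 0.0088 and 0.00057) and differed on MaSC and ALP. It put AL above MaSC by 0.72 (adjusted p = 0.0416), where the brightest set had -0.41 (adjusted p = 0.0533), and gave -0.08 for MaSC against LP (adjusted p = 0.847). By this set ALP and MaSC were also lower than ML (log2 -1.375 and -1.743, adjusted p = 0.00283 and 0.000307). The brightest set had -0.273 and -0.237 there, neither passing. The Ccnd3 levels of MaSC and ALP are therefore not settled by these arrays.

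By a likeness rule over all 15 arrays, the genes whose log2 intensities followed each D cyclin most closely were Hikeshi, Lsm6 and 4930415O20Rik for Ccnd1 (Pearson r 0.96, 0.96 and 0.96), Fbln7, Emb and F2r for Ccnd2 (0.97, 0.97 and 0.97) and Lfng, Slc44a2 and Pld3 for Ccnd3 (0.95, 0.95 and 0.95). Fbln7, Emb and F2r averaged 1477, 4982 and 3597 in MaSC, their highest, and 14.5, 62.6 and 109 in ML, their lowest. Lfng, a modifier of Notch receptors, averaged 2151 in ML, 1311 in MaSC and 893 in ALP, against 193 in AL and 158 in LP. The arrays share their populations, so these coefficients describe the pattern and carry no test.

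Cdk4 (1422441_x_at, chromosome 10, 127063535 to 127067288), the kinase that pairs with all D cyclins, was the member that set AL apart from every other population. Its intensity was 6199.8, 5832 and 6288 on the AL arrays, 3277, 4011 and 4248 on the ALP arrays, 4193, 3849 and 4342 on the MaSC arrays, 4054, 3611 and 3122 on the LP arrays and 4261, 4801 and 3811 on the ML arrays. All AL arrays lay above all 12 others, which overlapped among themselves. AL was higher by 1.71-fold than LP (log2 0.77 ± 0.13 SE, adjusted p = 0.000514), 1.6-fold than ALP (adjusted p = 0.00146), 1.48-fold than MaSC (adjusted p = 0.00231) and 1.43-fold than ML (adjusted p = 0.00462). None of the 6 comparisons among the virgin populations passed, with log2 differences from -0.26 to 0.21. The suffix of this probe set marks probes that can match other sequences, and the other 2 Cdk4 sets gave the same 4 differences, with folds of 1.43 to 1.82 over all 3 sets, each passing. The Cdk4 stretch with its 4 E-boxes is printed above.

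Cdk6 (1435338_at, chromosome 5, 3341004 to 3531008), the other partner kinase, was lowest in ML. Its intensity was 2530.3, 2326 and 2248 on the AL arrays, 2175, 1384 and 1297 on the ALP arrays, 1336, 1037 and 993 on the MaSC arrays, 2144, 1479 and 2237 on the LP arrays and 578, 442 and 640.2 on the ML arrays. The AL arrays lay above all others, narrowly over LP, the ML arrays below all others, and the MaSC arrays below all AL and LP arrays. Neither AL against ALP (log2 0.587, adjusted p = 0.0538) nor AL against LP (0.3, adjusted p = 0.294) passed. AL was 4.32-fold higher than ML (log2 2.11 ± 0.22 SE, adjusted p = 1.23e-05), LP 3.51-fold (adjusted p = 7.69e-05), ALP 2.88-fold (adjusted p = 0.000331) and MaSC 2.03-fold (adjusted p = 0.00213). AL was also 2.13-fold higher than MaSC (adjusted p = 0.00136), and MaSC was lower than LP by 1.73-fold (adjusted p = 0.015, but 0.0527 to 0.0599 without MaSC replicate 3, LP replicate 1 or LP replicate 3). The second Cdk6 probe set passed in the same 6 comparisons.

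**Figure D3:**
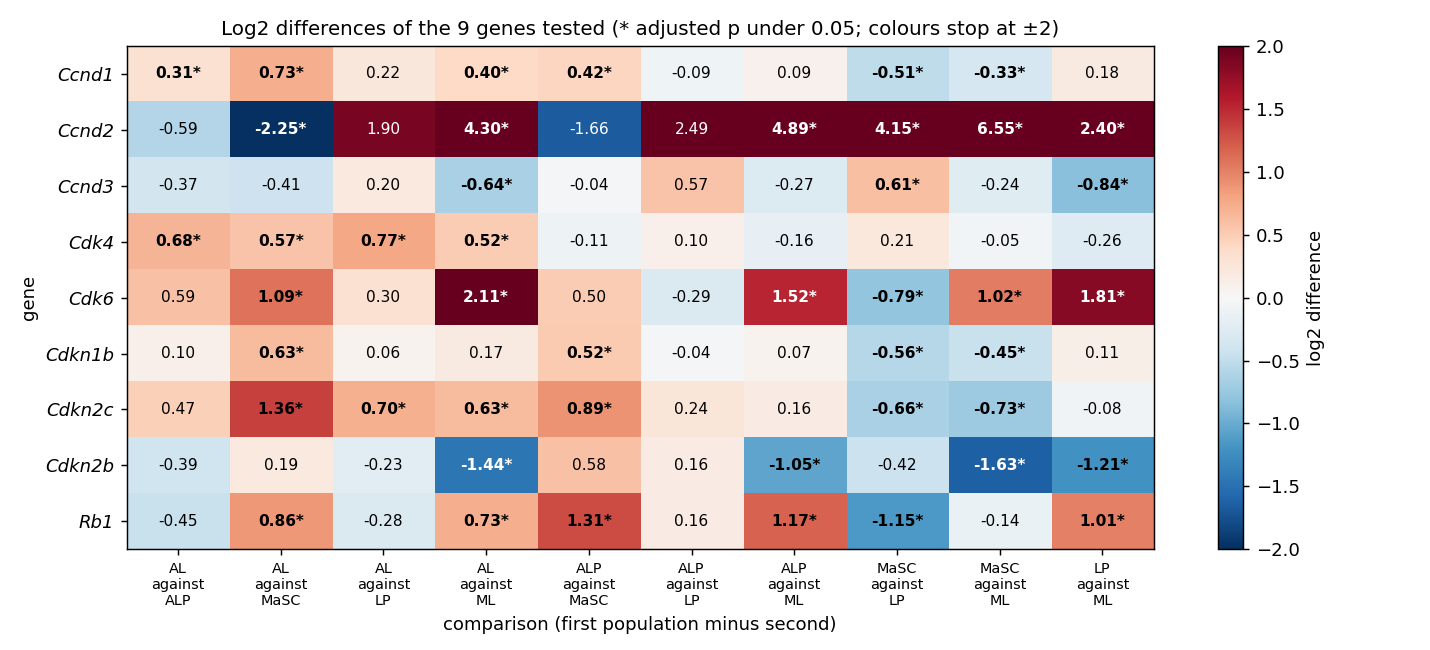
Log2 differences (first-named population minus the second) of the 9 members tested in the 10 comparisons, with the value in each cell, a colour scale that stops at 2 in either direction, and bold type with a star where the adjusted p was under 0.05. Cdk4 is marked in all comparisons of AL and in none of the others, and the column of ALP against LP holds no mark.

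The inhibitors did not move together. p27 (Cdkn1b, 1434045_at, chromosome 6, 134920401 to 134925525) was lower in MaSC than in every other population. Its intensity was 5927, 5736 and 6047 on the AL arrays, 4620.1, 6288 and 5700.4 on the ALP arrays, 4319, 4258 and 3033 on the MaSC arrays, 5594, 5691 and 5658 on the LP arrays and 5716, 4614 and 5418 on the ML arrays. All 3 MaSC arrays lay below all 12 others, of which the AL arrays lay narrowly above LP and ML. Neither AL against LP (log2 0.064, adjusted p = 0.747) nor AL against ML (0.175, adjusted p = 0.335) passed. AL was 1.54-fold higher than MaSC (log2 0.63 ± 0.15 SE, adjusted p = 0.00313) and ALP 1.44-fold higher (adjusted p = 0.0157, but 0.0656 without ALP replicate 2 and 0.0553 without MaSC replicate 3). MaSC was lower than LP by 1.48-fold (adjusted p = 0.00973) and lower than ML by 1.37-fold (adjusted p = 0.0188, but 0.0535 to 0.0757 without MaSC replicate 3, ML replicate 1 or ML replicate 3). AL against ALP gave 0.10 on the log2 scale, with an interval from -0.22 to 0.42. The second Cdkn1b probe set passed in the same 4 comparisons. These are transcript levels, and p27 is known to be regulated largely through protein stability.

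p18 (Cdkn2c, 1416868_at, chromosome 4, 109660876 to 109666756) followed the order of Ccnd1 at its ends, highest in AL and lowest in MaSC. Its intensity was 1792, 2173 and 2268 on the AL arrays, 1055, 1615 and 1952 on the ALP arrays, 1059, 709 and 693 on the MaSC arrays, 1225, 1462 and 1138 on the LP arrays and 1326, 1274 and 1417 on the ML arrays. The AL arrays lay above all MaSC, LP and ML arrays and overlapped ALP. AL exceeded MaSC by 2.57-fold (log2 1.36 ± 0.22 SE, adjusted p = 0.000267), LP by 1.63-fold (adjusted p = 0.0209) and ML by 1.55-fold (adjusted p = 0.03). The last pair were less firm, with adjusted p of 0.0568 to 0.0727 against LP without AL replicate 2 or 3 or LP replicate 1 or 3, and of 0.0504 to 0.0924 against ML without AL replicate 2 or 3 or any 1 ML array.

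MaSC held less Cdkn2c than the virgin luminal populations as well. ALP was 1.86-fold higher than MaSC (adjusted p = 0.00836). The arrays of these populations overlapped, with the lowest ALP array at 1055 and the highest MaSC array at 1059. That difference did not pass under every alternative run. MaSC was lower than ML by 1.66-fold (adjusted p = 0.0128, but 0.0508 without MaSC replicate 3) and lower than LP by 1.58-fold (adjusted p = 0.0329, but 0.0649 to 0.115 without MaSC replicate 2 or 3 or LP replicate 1 or 2). AL against ALP gave 0.47 on the log2 scale (adjusted p = 0.109), and 0.66 without ALP replicate 3 (adjusted p = 0.032).

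p15 (Cdkn2b, 1449152_at, chromosome 4, 89306289 to 89311032) was brightest in ML. Its intensity was 396, 193 and 344 on the AL arrays, 413, 439.7 and 327 on the ALP arrays, 423, 193 and 216 on the MaSC arrays, 236, 372 and 483 on the LP arrays and 949, 631 and 879 on the ML arrays. All ML arrays lay above all 12 others, which overlapped. It was lower than in ML by 3.1-fold in MaSC (log2 -1.63 ± 0.36 SE, adjusted p = 0.00221), by 2.71-fold in AL (adjusted p = 0.00504), by 2.31-fold in LP (adjusted p = 0.0152) and by 2.07-fold in ALP (adjusted p = 0.0381). The LP difference had an adjusted p of 0.0663 without LP replicate 1 and 0.0533 without ML replicate 1, and the ALP difference one of 0.0506 to 0.113 without any 1 ALP array, LP replicate 2, ML replicate 1 or ML replicate 3. None of the 6 comparisons among AL, ALP, MaSC and LP passed.

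Cdkn2a (1450140_a_at, chromosome 4, 89274473 to 89294619), the neighbour of Cdkn2b, was dim everywhere. Its intensity was 34.4, 19.97 and 31.9 on the AL arrays, 129.995, 85.2 and 59.6 on the ALP arrays, 30.9, 6.11 and 23.0 on the MaSC arrays, 6.71, 16.2 and 87.0 on the LP arrays and 47.0, 43.9 and 142 on the ML arrays. It exceeded the median of its array on 1 array, in ML, so no order between populations is read from it. Which of its transcripts the probe set reads was not examined here.

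RB itself (Rb1, 1417850_at, chromosome 14, 73192858 to 73325951), the substrate that restrains E2F, split the populations into a bright and a dim set. Its intensity was 4599, 4280.5 and 4325 on the AL arrays, 6908, 5595 and 5563 on the ALP arrays, 2770.2, 2834 and 1797 on the MaSC arrays, 5474, 4823 and 5814 on the LP arrays and 2730.4, 2036 and 3365 on the ML arrays. All AL, ALP and LP arrays lay above all MaSC and ML arrays. Within the bright set the AL arrays lay below all ALP and LP arrays. Neither AL against ALP (log2 -0.445, adjusted p = 0.0954) nor AL against LP (-0.283, adjusted p = 0.268) passed. The fibroblast marker sums split in the same way, at least 28844 on AL, ALP and LP arrays and at most 7617 on MaSC and ML arrays. Their part in the Rb1 levels was not tested. Against MaSC, ALP was 2.48-fold higher (log2 1.31 ± 0.20 SE, adjusted p = 0.000561) and AL 1.82-fold higher (adjusted p = 0.00292), and MaSC was lower than LP by 2.22-fold (adjusted p = 0.000959). Against ML, ALP was 2.26-fold higher (adjusted p = 0.000914), LP 2.02-fold (adjusted p = 0.00159) and AL 1.66-fold (adjusted p = 0.00888). MaSC and ML, both dim, differed by -0.14 on the log2 scale, with an interval from -0.57 to 0.30. The other Rb1 probe set, 1444400_at, exceeded the array median on 0 arrays and was not tested. It was brightest in AL, at 82.6 to 153, against at most 36.9 elsewhere, and so did not share the order above.

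Read by comparison, the members' counts stood against a high background. In AL against ALP 2 of 9 were higher and 0 lower, where 18.7% of all genes were higher and 21.2% lower. In AL against MaSC 6 were higher and 1 lower (31.3% and 28.1% of all genes), in AL against LP 2 and 0 (21.3% and 24.2%), and in AL against ML 6 and 2 (28.7% and 24.8%). The members' median log2 difference was 0.10, 0.63, 0.22 and 0.52 in these 4 comparisons, in the same order, beside -0.02, 0.05, -0.03 and 0.03 over all genes.

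ALP against MaSC gave 4 members higher and 0 lower (21.7% and 16.7% of all genes), with a median of 0.50 beside 0.07. ALP against ML gave 3 and 1 (21.1% and 15.6%, medians 0.09 and -0.02), and MaSC against LP 2 and 5 (15.8% and 23.1%, medians -0.51 and -0.07). MaSC against ML gave 2 and 4 (27.1% and 32.4%, medians -0.24 and -0.07), and LP against ML 3 and 2 (27.3% and 21.7%, medians 0.11 and 0.04). The comparisons share populations and are not independent of each other.

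ALP and LP, the YFP-marked and the CD61+ virgin luminal cells, gave no member past the threshold, in a comparison where 3.58% of all genes were higher and 3.95% lower in ALP. At an unadjusted p under 0.05 there were 2 members, Ccnd2 (log2 2.49, adjusted p = 0.103) and Ccnd3 (0.57, adjusted p = 0.0611). The share of all genes at that looser threshold was not worked out, so nothing about the members is read from this count. The Ccnd2 value was 1.56 without ALP replicate 3 (adjusted p = 0.309). Intervals were narrow for Ccnd1 (-0.33 to 0.15), Cdk4 (-0.18 to 0.37) and Cdkn1b (-0.36 to 0.28), and wide for Ccnd2 (0.57 to 4.41).

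The split of called genes depended on how arrays were scaled. Among all genes called, the share higher in the first population was 46.9% for AL against ALP as deposited, 59.9% after quantile normalisation and 73.9% with arrays centred on their medians. Where centring moved that share by over 10 points, it was 60.1% in place of 46.9% for AL against LP, 41% in place of 53.7% for AL against ML, and 37.3% in place of 56.6% for ALP against MaSC. It was 28.4% (37.2% with quantile normalisation) in place of 47.5% for ALP against LP, and 18.7% (37.1%) in place of 57.5% for ALP against ML. It was 27.9% in place of 45.6% for MaSC against ML, and 30.3% (45.6%) in place of 55.7% for LP against ML. Centring shifted the median of all genes by 0.27 for AL against ALP and by -0.41 for ALP against ML, the extremes, and the member differences named here as passing kept their direction under both scalings, with Ccnd1 in AL against ML and Ccnd1 and Cdkn1b in ALP against MaSC not passing after centring and Ccnd2 in LP against ML not passing after quantile normalisation (adjusted p = 0.0562).

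Genes of DNA replication and mitosis act downstream of RB and E2F. Over all genes, 18.7%, 31.3%, 21.3% and 28.7% were higher in AL than in ALP, MaSC, LP and ML. Of 17 S phase genes tested (18 listed), 16 were higher in AL than in ALP, 14 than in MaSC, 16 than in LP and 17 than in ML, and 0 were lower. Their median log2 difference was 1.51, 1.38, 1.32 and 1.62. Rrm1, a subunit of ribonucleotide reductase, averaged 4416 in AL, against 1558 in ALP, 1880.5 in MaSC, 1478 in LP and 1065 in ML. Of 18 mitosis genes, 17 were higher in AL than in ALP, 18 than in MaSC, 17 than in LP and 17 than in ML, with 0 lower and medians of 3.53, 3.995, 3.33 and 3.18. Bub1b, a spindle checkpoint kinase, averaged 2366 in AL, against 203 in ALP, 172 in MaSC, 147 in LP and 259 in ML. These virgin levels are near the array medians of 137 to 209.9, and 4 of the 12 virgin arrays lay below theirs, so the folds are uncertain in size. The filter let in 1 S phase gene, 2 mitosis genes and 2 E2F genes that exceeded the median on fewer than 3 virgin arrays and so passed only with the AL arrays. With a filter of 9 of 15 arrays the mitosis counts were 10, 11, 10 and 10. That filter left fewer of the 18 mitosis genes tested, so these counts are not to be set against 18.

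**Figure D4:**
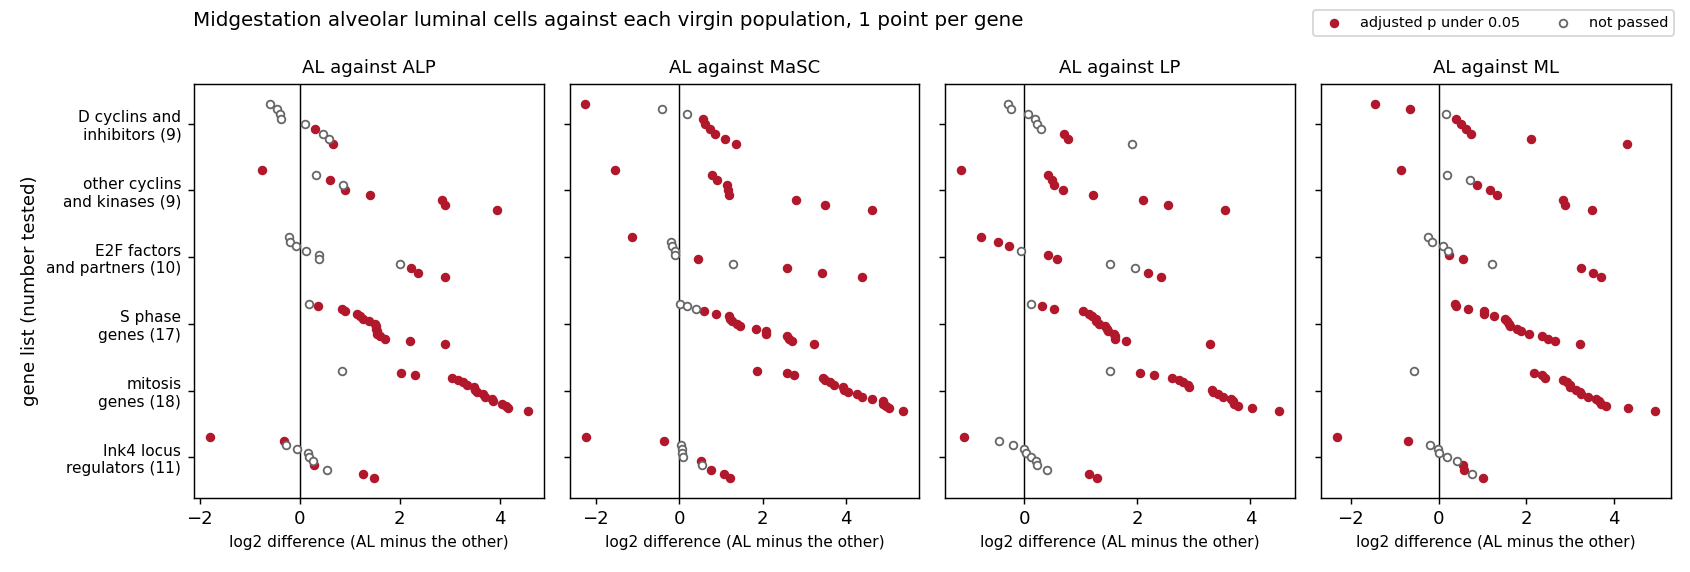
Log2 differences of AL minus each virgin population, 1 point per gene, for the 9 members and 5 lists of cell cycle genes (filled, adjusted p under 0.05; open, not passed). The mitosis list centres on 3.18 to 3.995 and the S phase list on 1.32 to 1.62, while the members spread on both sides of 0.

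Most cyclins and kinases that act after the D cyclins, or activate their kinases, were higher in AL, with 1 gene lower. Of 9 tested (11 listed), 6 were higher and 1 lower in AL than in ALP, 8 and 1 than in MaSC, 8 and 1 than in LP (5 and 1 without LP replicate 1), and 6 and 1 than in ML. Ccne2, cyclin E2, which activates CDK2 at the entry into S phase, was 2.64-fold higher in AL than in ALP (adjusted p = 1.16e-05), and Ccnb2, a mitotic cyclin, 11.7-fold higher than in LP (adjusted p = 0.00375). The gene lower in all 4 was Cdk7, of the CDK-activating kinase, lower in AL by 1.70-fold than in ALP (adjusted p = 0.000121) and by 2.9-fold than in MaSC (adjusted p = 4.2e-07). The other subunits of that kinase did not follow it: Ccnh (cyclin H) was 1.52-fold higher in AL than in ALP (adjusted p = 0.00181), and Mnat1 2.28-fold higher than in MaSC (adjusted p = 1.21e-05).

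Of the 5 other inhibitors and pocket proteins, Cdkn1a and Rbl1 moved in opposite directions in AL in all 4 comparisons. Cdkn1a, which encodes the inhibitor p21, averaged 2633 in AL, against 7828 in ALP, 9097 in MaSC, 9135 in LP and 6254 in ML, and was lower by 2.98, 3.45, 3.49 and 2.38-fold (adjusted p from 1.14e-06 to 1.29e-05). Rbl1, which encodes the RB relative p107, itself a known E2F target, was higher in AL by 2.32, 5.1, 2.51 and 2.65-fold (adjusted p from 1.42e-05 to 0.0028). Among 10 E2F factors and partners, 3, 4, 4 and 5 were higher and 0, 1, 3 and 0 lower in AL than in ALP, MaSC, LP and ML. E2f1 passed in all 4, by 4.7-fold over ALP, 5.96-fold over MaSC, 4.54-fold over LP and 11.5-fold over ML, with 7 of the 12 virgin arrays below their median, whereas E2f6, a repressive member, was lower in AL than in MaSC by 2.17-fold and than in LP by 1.69-fold. Without MaSC replicate 3, 5 were higher than in ALP, and without LP replicate 3, 1 was lower than in LP.

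Of 12 genes tested (13 listed) that govern the turnover of p27 and D cyclins, 2, 4, 2 and 4 were higher and 3, 3, 3 and 4 lower in AL than in ALP, MaSC, LP and ML. Skp2, the F-box protein that targets p27 for degradation, averaged 866 in AL, against 116 in ALP, 454 in MaSC, 149 in LP and 145 in ML, and was higher in AL by 7.76, 1.92, 5.84 and 5.98-fold (adjusted p from 2.55e-06 to 0.00301). All 3 ALP and all 3 LP arrays and 1 ML array lay below their median for Skp2, so the folds against these are uncertain in size. Fbxo4, an F-box protein that has been linked to cyclin D1 degradation, was lower in AL by 2.61, 1.78, 3.76 and 3.18-fold. Without MaSC replicate 3, 2 of the list were higher in AL than in MaSC. Skp2 was also 3.04-fold higher in MaSC than in LP (adjusted p = 0.000211), and lower in ALP than in MaSC by 4.04-fold (adjusted p = 7.47e-05).

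Of 11 regulators of the Ink4 genes tested (13 listed), 3, 4, 2 and 3 were higher and 2, 2, 1 and 2 lower in AL than in ALP, MaSC, LP and ML. Ezh2, the methyltransferase of Polycomb repressive complex 2, was higher in AL by 2.39, 2.12, 2.2 and 2.03-fold (adjusted p from 0.000229 to 0.000485). Tbx3, a T-box repressor of the Cdkn2a locus, averaged 955 in AL, against 3408 in ALP, 4504 in MaSC, 2022 in LP and 4782 in ML (adjusted p from 1.56e-06 to 0.00077). Bmi1, of Polycomb repressive complex 1, was lower in MaSC than in ML by 1.95-fold (adjusted p = 0.000112) and than in LP by 1.45-fold (adjusted p = 0.00788). The count lower in AL was 1 against ALP without AL replicate 2 or 3, any 1 ALP or LP array or ML replicate 1, against MaSC without AL replicate 2 or MaSC replicate 2, and against ML without AL replicate 1 or 3 or any 1 ML array, and the count higher than in LP was 1 without AL replicate 2 or 3 or LP replicate 1 or 3. With arrays centred on their medians, which moved all genes of AL against ALP upwards, the E2F, turnover and Ink4 lists had 6, 5 and 7 higher and 0, 1 and 1 lower than in ALP. These lists were read against the same shares of all genes as the members, their genes were chosen with earlier results known, and nothing particular to a list is read from its count.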

How the data were processed

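RNA was amplified (NuGEN Ovation V2) and hybridised to Affymetrix Mouse Genome 430 2.0 arrays, and the authors normalised them with dChip. The deposited values are intensities on a linear scale. For dChip, no version, model or baseline array was given in the sources used here. Of 45101 probe sets, 34945 matched 1 gene symbol in the platform annotation, 932 several and 9160 none, 64 being controls. Intensities under 1 were set to 1 (659 values were 0) and log2 transformed. A probe set was kept when it exceeded the median of its array on at least 3 of 15 arrays, and each gene was read from the kept probe set with the highest mean. Array medians were 137 to 209.9, and the number of arrays limits the precision. Log2 values were fitted over all 15 arrays with 1 mean per population (limma 3.58.1 in R 4.3.3, lmFit and eBayes), and p-values were Benjamini-Hochberg adjusted over 12143 genes, with a threshold of 0.05. The Ccnd2 to Ccnd1 ratio was compared with an exact permutation test. The fit was tested on simulated data.

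The 10 members and all lists were chosen with earlier results of these data known. The members are all named, and from each list up to 3 genes per comparison with the largest moderated statistic among those that passed, some also with their values in other comparisons. Correlations between arrays of 1 population were 0.984 to 0.989 for AL, 0.902 to 0.970 for ALP, 0.943 to 0.973 for MaSC, 0.976 to 0.986 for LP and 0.979 to 0.983 for ML, and no arrays were identical. Replicate numbers recur across populations, but whether a number marks 1 suspension is not stated, so no block was used in the reported fit. Alternatives were an added constant, quantile normalisation, centring, other filters, a replicate block, fits of 2 populations, a trend, array weights, other probe sets and leaving out each array. Promoters came from RefSeq (GRCm38.p6), and those of Ccnd1, Ccnd2 and Rb1 are not shown.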

Additional observations from a re-analysis of the deposited data

How the results depend on the processing

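Of the 45 member differences that passed, 28 passed under every alternative run, and of 2247 alternative values 2108 kept their side of the threshold, 82 no longer passed, 53 passed newly and 4 changed sign with a call before or after. Of the 2108, 33 changed sign without passing either way. The count of 9 members that differ among populations and the call on the Ccnd2 to Ccnd1 ratio did not change under any alternative. The 4 were Ccnd3 in AL against MaSC (0.72) and in MaSC against LP (-0.08) with the next brightest probe set, and Ccnd1 (-0.32) and Cdkn1b (-0.34) in ALP against ML with arrays centred on their medians. For AL against ALP, 2 members were called as reported, 4 with quantile normalisation, 5 with centring, 1 without a filter, 6 with array weights, 1 with the next brightest probe sets, and 1 to 3 with single arrays left out. For AL against LP (2 as reported) there were 4 in a fit of only these 2 populations, 4 with array weights and 1 to 3 with single arrays left out. For ALP against MaSC (4) there were 2 with centring and 1 in a fit of 2 populations. For ALP against LP (0) there was 1 each with quantile normalisation, array weights and the next brightest probe sets, and 0 to 1 with single arrays left out (Ccnd3 without ALP replicate 1). For ALP against ML (4) there were 8 with centring. Leaving out single arrays gave 3 to 6 for MaSC against ML (6; lowest without MaSC replicate 3) and 3 to 5 for LP against ML (5; lowest without LP replicate 1 or ML replicate 1). For the 4 comparisons of AL, a filter that asks for 9 of 15 arrays leaves fewer mitosis and E2F genes tested, so its counts have a smaller base. It gave 10, 11, 10 and 10 mitosis genes higher than in ALP, MaSC, LP and ML (17, 18, 17 and 17 as reported) and 1, 1, 3 and 3 E2F genes (3, 4, 4 and 5). Except where a fit had fewer arrays or genes, the cause was not tested.

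Whether replicate numbers pair the arrays was not settled. The deviations of same-numbered MaSC, LP and ML arrays correlated at -0.011 to 0.173, over 0.1 in 1 of 9 pairs. Correlations this weak cannot tell whether a number marks 1 suspension. With the replicate block over 15 arrays 2 member differences no longer passed (Ccnd1 in AL against ALP and Cdkn2c in MaSC against LP, adjusted p = 0.0515 and 0.0523) and 2 passed newly, and over the 9 MaSC, LP and ML arrays 3 no longer passed (in MaSC against ML, Ccnd1 with adjusted p = 0.0551 and Cdkn1b with 0.0513, and in LP against ML, Ccnd2 with 0.0702). Signal limits the dimmest members: Ccnd2 in ML and Cdkn2a throughout lay near or below the array median.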
